A study of Mus musculus with 24 samples.

Results

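The insulin-like growth factor (IGF) genes described here are the ligands Igf1 and Igf2, the receptor Igf1r and the binding proteins Igfbp2, Igfbp3, Igfbp4, Igfbp5, Igfbp6 and Igfbp7. They are 9 of 25755 genes in the series and were taken by gene name alone, each name matching 1 Ensembl gene. Their mRNA was measured by RNA-seq in YFP-labelled dermal papilla (DP) cells sorted from the back skin of individual mice, with 3 control and 3 double mutant (dM1/2) libraries at each of 4 ages, 24 libraries in all. The ages were postnatal day 20 (P20, telogen of the first cycle), P24 and P28 (early and mid anagen of the second cycle) and P60 (telogen of the second cycle). The dM1/2 mice were Cor-cre/+; Hdac1Flox/Flox; Hdac2Flox/Flox. The controls also carried Cor-cre/+, with Hdac1Flox/+; Hdac2Flox/+, Hdac1Flox/+; Hdac2+/+, Hdac1+/+; Hdac2Flox/+, Hdac1Flox/+; Hdac2Flox/Flox or Hdac1Flox/Flox; Hdac2Flox/+, so that some controls were homozygous for 1 floxed gene. The labels do not say which control library had which of these genotypes. Corin-Cre acts in DP cells and the YFP came from a ROSA26 reporter that the same Cre switches on. By the study's methods, P20 skins came from females and anagen skins from males, and for the second telogen both sexes were used, without the sex of each P60 library in the labels. P20 and anagen therefore differ in sex as well as stage, which cannot be told apart, while control and dM1/2 libraries were compared at the same age.

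The DP is the mesenchymal cluster at the base of the hair follicle that signals to the epithelial cells above it, and IGF-1 from dermal cells is known as a factor that sustains hair growth. IGF-1 and IGF-2 are secreted ligands that both signal through the receptor tyrosine kinase IGF1R, while IGF2R removes IGF-2 from the cell surface. Most extracellular IGF is held by the binding proteins, which limit or prolong its access to the receptor and are cut by proteases such as PAPP-A. IGFBP7 shares part of the fold of this family and binds IGFs weakly.

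Library depth, recovered from the deposited values as whole reads on genes, was 11635062 to 13369732 reads at P20, 35469841 to 49331751 at P24, 37171260 to 48331795 at P28 and 8171944 to 9724000 at P60. The lowest read count of a member in any library was 114, and all 9 members averaged 10 or more normalized reads at every age and were tested. At P20 Hdac1 had 375 to 511 normalized reads in controls and 216 to 370 in dM1/2 (log2 fold change -0.72, adjusted p = 0.122), and at P60 360 to 506 and 318 to 371, with overlap (-0.25, adjusted p = 0.986), so that it did not pass in telogen. Hdac1 had 668 to 675 normalized reads in the P24 controls and 116 to 209 in dM1/2 (log2 fold change -2.01, SE 0.22, limma adjusted p = 0.00167). At P28 Hdac1 had 214, 529 and 105 normalized reads in P28 control 1, 2 and 3, and 126 to 190 in dM1/2. Only the third control was thus below the dM1/2 libraries, and the other controls were above them all. The log2 fold change was -0.58 (SE 0.55, adjusted p = 0.454). The listed control genotypes include homozygous floxed Hdac1, and the labels do not say whether the third control had it. Hdac2 was not lower in dM1/2 at P24 or P28 (log2 fold change 0.27 and 0.16), and since the counts cover whole genes they do not check the deleted part. Because of Hdac1, the P28 results are also given without the library labelled P28 control 3. The 12 DP markers summed to 118908 to 343222 normalized reads in anagen controls and 89299 to 173746 in anagen dM1/2, and the first of them, Corin, had 12270 to 75260 and 3138 to 5005. In the telogen libraries of both genotypes the DP markers summed to 16884 to 51858, with Corin at 133 to 1203. There 6 markers of other dermal fibroblasts summed to more, 71994 to 216990. The share of such cells in the telogen libraries was not tested. The keratinocyte marker Krt5 was at most 229 normalized reads in any library (10 keratinocyte markers summed to at most 602), the melanocyte marker Pmel at most 59.2 (6 markers summed to at most 2764), the endothelial marker Pecam1 at most 197 (6 markers, at most 6195), the immune marker Ptprc at most 40.4 (7 markers, at most 1399) and the adipocyte marker Adipoq at most 44.1 (5 markers, at most 649). The highest melanocyte and endothelial sums were both in P60 dM 1, and the immune sum of P24 control 1 (1361) was above those of the other P24 controls (176 and 389). Markers of other dermal fibroblasts were high in every library and are given beside the members they follow.

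Compared per kilobase of annotated exon, the highest members in control libraries were binding proteins at every age. At P20 the mean levels in controls were 26307 normalized reads per kb for Igfbp3, 12883 for Igfbp5, 8387 for Igfbp7, 4572 for Igfbp6, 2844 for Igfbp2, 1409 for Igfbp4, 1016 for Igf1, 259 for Igf1r and 140 for Igf2. At P28 the order of control levels per kb was Igfbp5 (13846), Igfbp7 (9315), Igfbp4 (4090), Igfbp6 (2920), Igfbp3 (1599), Igf1 (730), Igf1r (365), Igfbp2 (310) and Igf2 (154). Igf2 was therefore the lowest of the 9 members in controls at both of these ages, and also at P24 (82.9 per kb) and P60 (144 per kb). In dM1/2 at P28 Igf2 reached 3389 per kb and stood below Igfbp5 (3954) and Igfbp4 (3593) and above Igfbp3 (3327), and the ranges of these 4 genes over the 3 libraries overlapped.

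**Figure D1:**
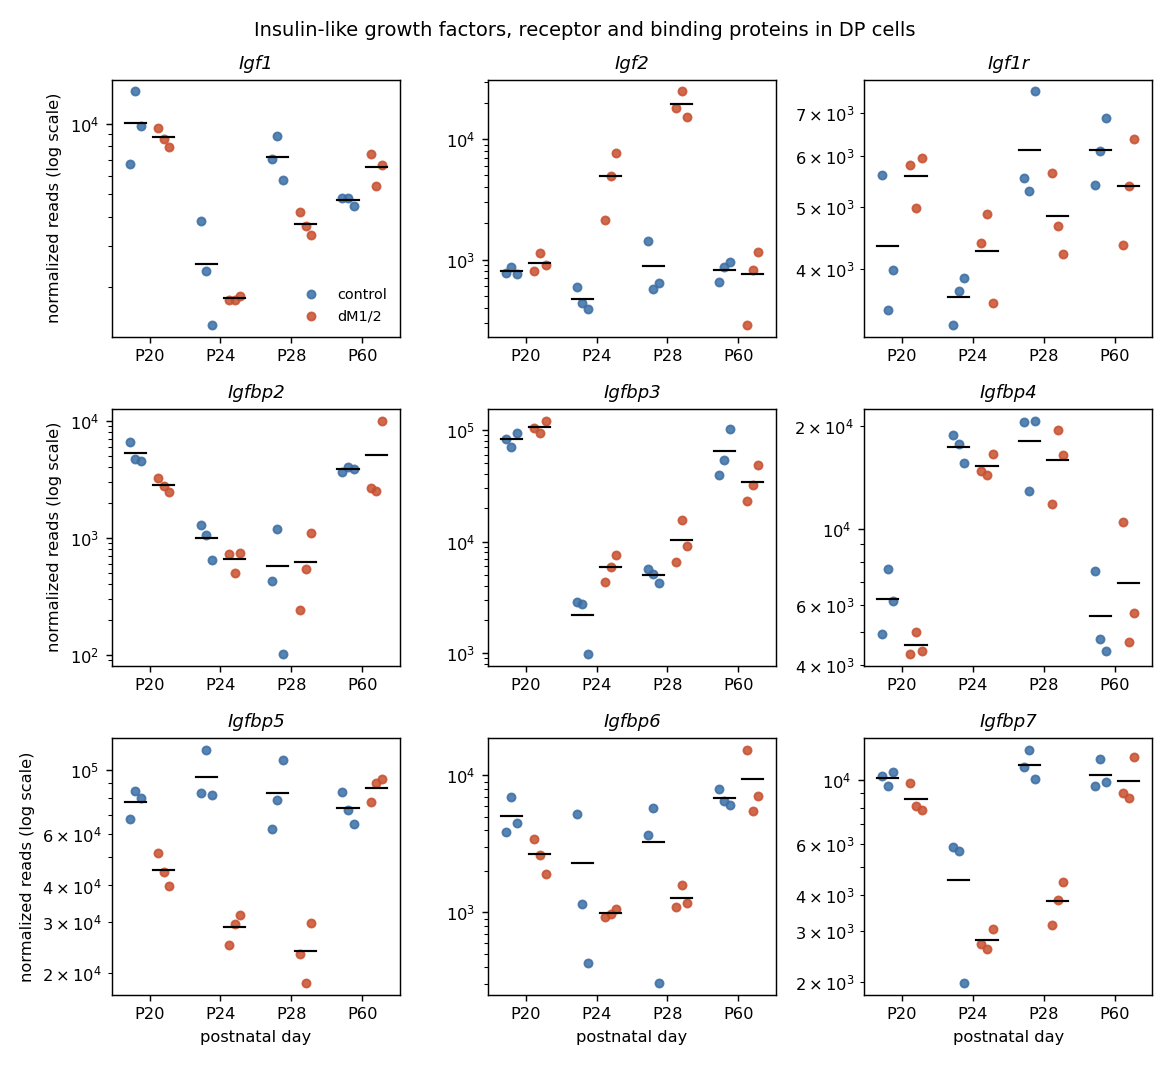
Normalized reads of each member (log axis, its range differing between panels) against age in control (blue) and dM1/2 (red) libraries, with 1 point per library and a black line at the group mean. Igf2 in dM1/2 at P28 lies between 15230 and 24877 normalized reads while every control library lies at or below 1435.

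Igf2 rose in dM1/2 DP cells during anagen and had the largest change of the 9 members at both anagen ages. The gene lies on the minus strand of chromosome 7 (chr7:142650766-142666816, GRCm38), and is an imprinted gene, transcribed from the paternal copy in most tissues. Control libraries had 774, 863 and 763 normalized reads of Igf2 at P20, 595, 436 and 393 at P24, 1435, 567 and 647 at P28 and 657, 870 and 952 at P60. The dM1/2 libraries had 812, 1126 and 904 normalized reads at P20, 2129, 4970 and 7679 at P24, 18084, 24877 and 15230 at P28 and 288, 825 and 1158 at P60. Every dM1/2 library was above every control library at P24 and P28, and the groups overlapped at P20 and P60. The mean level was 4926 ± 2775 (SD, n = 3) in dM1/2 against 474 ± 106 in controls at P24, and 19397 ± 4956 against 883 ± 479 at P28. The log2 fold change was 3.21 (SE 0.43, 9.26-fold, adjusted p = 0.00274) at P24 and 4.55 (SE 0.37, 23.5-fold, adjusted p = 0.000436) at P28. Without the library labelled P28 control 3 it was 4.39 (adjusted p = 0.000188). Within dM1/2, Igf2 rose 4.38-fold from P24 to P28 (log2 fold change 2.13, SE 0.41, adjusted p = 0.0363), a call lost without P24 dM 2 (adjusted p = 0.0588) or without P28 dM 1, 2 or 3 (adjusted p = 0.0588, 0.165 and 0.0816). The difference of the dM1/2 effect between P24 and P28 did not pass the test (log2 difference 1.34, SE 0.63, adjusted p = 0.446). In bulk samples a change in the share of cells that transcribe a gene and a change in RNA per cell cannot be told apart.

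RefSeq lists 4 transcription starts for Igf2 in GRCm38.p6, and counts per gene do not show which of them the added reads came from. The bases just upstream of 3 of these starts are shown, since they are the candidate promoters of the member that changed most. They are taken from the 120 bases before each start and read 5′ to 3′ on the transcribed minus strand, and at start 2 34 bases that lie in an annotated exon were left out. Start 3 is not shown because its upstream bases lie in an annotated exon. Capitals mark the letters GGGCGG (the GC box) or their reverse complement CCGCCC.
Igf2 start 1, chr7:142666817-142666936: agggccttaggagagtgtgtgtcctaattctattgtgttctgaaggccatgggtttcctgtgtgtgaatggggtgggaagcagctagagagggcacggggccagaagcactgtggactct
Igf2 start 2, chr7:142661306-142661391: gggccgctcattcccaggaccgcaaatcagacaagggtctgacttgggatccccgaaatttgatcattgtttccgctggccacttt
Igf2 start 4, chr7:142657497-142657616: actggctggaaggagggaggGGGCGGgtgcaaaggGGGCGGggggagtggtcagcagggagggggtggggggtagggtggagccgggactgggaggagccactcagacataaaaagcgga

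In windows of 300 bases around each start (250 before and 50 from the start on), GGGCGG or CCGCCC was found 0 times at starts 1 and 2, 1 time at start 3 and 2 times at start 4. The GC content of these windows was 52.3% at start 1, 49.7% at start 2, 64.7% at start 3 and 63.3% at start 4. A GC box of these letters was in 35.7% of all 32851 RefSeq windows of this length and in 5 of the 13 windows of the 9 members. The TATA box letters TATAAA, or TTTATA on the other strand, were in 13.6% of all windows and in 2 of the 13, those of Igfbp4 and Igfbp6. In the annotation, Igf2 shares its strand with Gm49394 over nearly its whole span (16048 bases) and with Mir483 (73 bases). The antisense gene Igf2os overlaps it as well (7124 bases). Reads in the shared stretches may have been counted for either gene or dropped.

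Igf1, the other ligand, changed with age in both genotypes and fell in dM1/2 at P28. The gene lies on the plus strand of chromosome 10 (chr10:87858265-87937042). Control libraries had 6701, 13724 and 9772 normalized reads of Igf1 at P20, 3832, 2338 and 1382 at P24, 7064, 8880 and 5746 at P28 and 4805, 4824 and 4464 at P60. The dM1/2 libraries had 9593, 8605 and 7982 normalized reads at P20, 1772, 1764 and 1845 at P24, 4181, 3660 and 3335 at P28 and 7412, 5421 and 6672 at P60. At P28 every dM1/2 library was below every control library, at P60 every dM1/2 library was above, and at P20 and P24 the groups overlapped. The log2 fold change was -0.94 (SE 0.19, adjusted p = 0.0102) at P28, and -1.09 (adjusted p = 0.00229) without the library labelled P28 control 3. At P24 it was -0.37 (SE 0.32, adjusted p = 0.443), and 1 of the 6 fits that left out 1 library passed. It was -0.74 (adjusted p = 0.0333) without P24 control 3 and -0.0035 without P24 control 1. At P60 it was 0.46 (SE 0.16, adjusted p = 0.986). The proportion of the ligands differed between the genotypes at P24 and P28. Igf2 made up 21.2% to 33% of the ligand reads per kb in P24 controls and 67.5% to 87.8% in P24 dM1/2, and 9.96% to 26% in P28 controls and 88.2% to 92.2% in P28 dM1/2. At P20 these shares were 9.81% to 16.7% in controls and 12.8% to 18.5% in dM1/2, and at P60 19.1% to 27% and 6.3% to 23.1%, with overlap at both ages. The summed ligand level was 884 ± 166 reads per kb (SD, n = 3) in P28 controls and 3765 ± 874 in P28 dM1/2.

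Igf1r, the receptor for both ligands, did not pass the test against control at any age. The gene lies on chromosome 7 (chr7:67952827-68233668, plus strand), on the same chromosome as Igf2. Its control libraries had 5606, 3452 and 3990 normalized reads at P20, 3278, 3698 and 3880 at P24, 5552, 5284 and 7554 at P28 and 5409, 6113 and 6861 at P60. Its dM1/2 libraries had 5807, 4980 and 5946 at P20, 4399, 4879 and 3548 at P24, 5648, 4667 and 4225 at P28 and 4362, 5393 and 6378 at P60. The groups overlapped at all 4 ages, and the log2 fold changes ran from -0.33 at P28 (SE 0.19, adjusted p = 0.228) to 0.39 at P20 (SE 0.18, adjusted p = 0.26). At P20 the value was 0.58 (adjusted p = 0.0264) without P20 control 1 and 0.23 without P20 control 2.

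Igfbp5 had the highest level per kb of the 9 members in anagen controls and fell in dM1/2 at both anagen ages. It is a binding protein that adheres to the extracellular matrix, and lies on chromosome 1 (chr1:72857932-72874884, minus strand). Control libraries had 67556, 84664 and 79909 normalized reads of Igfbp5 at P20, 83072, 117490 and 82146 at P24, 62740, 78915 and 107826 at P28 and 84081, 72922 and 64913 at P60. The dM1/2 libraries had 51630, 44470 and 39692 at P20, 25021, 29390 and 31736 at P24, 23207, 18439 and 29592 at P28 and 77371, 90416 and 93054 at P60. Every dM1/2 library was below every control library at P20, P24 and P28, and the groups overlapped at P60. The log2 fold change was -1.70 (SE 0.26, adjusted p = 0.00401) at P24 and -1.80 (SE 0.35, adjusted p = 0.00818) at P28, 3.25-fold and 3.48-fold lower. The P28 call was lost without P28 dM 2 (adjusted p = 0.0506), and without the library labelled P28 control 3 the log2 fold change was -1.59. At P20 the log2 fold change was -0.78 (SE 0.18, adjusted p = 0.0837). It was -0.87 (adjusted p = 0.0244) without P20 control 1 and -0.68 without P20 dM 3.

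Igfbp7, which binds IGFs weakly and is also a matrix protein, fell in dM1/2 at P28. It lies on chromosome 5 (chr5:77349240-77408041, minus strand), and 85 of its bases overlap Polr2b on the other strand. Control libraries had 10282, 9499 and 10638 normalized reads of Igfbp7 at P20, 5832, 5680 and 1978 at P24, 11071, 12701 and 10011 at P28 and 9532, 11783 and 9787 at P60. The dM1/2 libraries had 9716, 8107 and 7829 at P20, 2696, 2602 and 3041 at P24, 3149, 3819 and 4423 at P28 and 9013, 8609 and 11991 at P60. All P28 dM1/2 libraries were below all P28 controls, and at the other ages the groups overlapped. The log2 fold change at P28 was -1.58 (SE 0.18, 2.98-fold lower, adjusted p = 0.00114), with a range of -1.69 to -1.45 when each library was left out (-1.66 without the library labelled P28 control 3). At P24 it was -0.54 (SE 0.39, adjusted p = 0.347), where the third control library was below all dM1/2 libraries. The P24 value was -1.05 (adjusted p = 0.00177) without that library and -0.27 without P24 control 1. Of the 6 P24 fits that left out 1 library, 1 passed. The effect at P28 minus that at P24 was -1.04 on the log2 scale (SE 0.48, adjusted p = 0.432), so that a difference between the anagen ages was not shown.

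Igfbp3, the main carrier of IGF in serum, rose in dM1/2 at P24. It lies on chromosome 11 (chr11:7206086-7213923, minus strand). Control libraries had 83401, 70772 and 92847 normalized reads of Igfbp3 at P20, 2879, 2754 and 983 at P24, 5669, 5116 and 4233 at P28 and 39170, 53615 and 100825 at P60. The dM1/2 libraries had 104120, 94217 and 121264 at P20, 4372, 5894 and 7591 at P24, 6538, 15515 and 9188 at P28 and 23032, 32332 and 47953 at P60. Every dM1/2 library was above every control library at P20, P24 and P28, and the groups overlapped at P60. The log2 fold change was 1.55 (SE 0.42, 2.93-fold, adjusted p = 0.0306) at P24, and the call was lost without P24 dM 2 (adjusted p = 0.0813) or P24 dM 3 (adjusted p = 0.108). Without P24 control 3, the lowest library, it was 1.04 (adjusted p = 0.0136). At P28 it was 0.97 (SE 0.32, adjusted p = 0.0511), 1.26 (adjusted p = 0.0263) without P28 dM 1 and 0.64 without P28 dM 2. Of the 6 P28 limma fits that left out 1 library, 1 passed. With edgeR and DESeq2 on the recovered reads the P28 change passed the test (adjusted p = 0.0369 and 0.00519). At P20 the log2 fold change was 0.37 (SE 0.21, adjusted p = 0.342). Igfbp3 and Igfbp5 thus moved in opposite directions at P24.

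The upstream bases of Igfbp5, Igfbp3 and Igfbp7 are shown because these are the binding proteins that changed in anagen. They have the same orientation and capitals as those of Igf2, and 19 bases of Igfbp5 that lie in an annotated exon were left out.
Igfbp5, chr1:72874885-72874985: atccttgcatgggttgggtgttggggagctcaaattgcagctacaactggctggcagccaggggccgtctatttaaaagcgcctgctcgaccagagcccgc
Igfbp3, chr11:7213924-7214043: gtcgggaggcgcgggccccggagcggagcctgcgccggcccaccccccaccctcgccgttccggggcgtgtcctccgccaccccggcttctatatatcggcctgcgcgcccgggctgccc
Igfbp7, chr5:77408046-77408165: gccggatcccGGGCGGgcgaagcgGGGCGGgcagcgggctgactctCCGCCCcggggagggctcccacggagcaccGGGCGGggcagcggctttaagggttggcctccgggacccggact

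The windows of 300 bases held 4 GC boxes at Igfbp7 and 0 at Igfbp5 and Igfbp3, and their GC content was 73.3%, 56.3% and 71.7%. The letters of these windows therefore differed between Igfbp5 and Igfbp7, which both fell at P28.

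Igfbp4, Igfbp2 and Igfbp6 passed the test against control at no age. Igfbp4, a binding protein that restrains IGF until PAPP-A cuts it, had 4934 to 7602 normalized reads in P20 controls, 15584 to 18815 in P24 controls, 12925 to 20703 in P28 controls and 4381 to 7504 in P60 controls. Its dM1/2 libraries had 4300 to 4973, 14298 to 16528, 11840 to 19367 and 4652 to 10457 at the same ages, overlapping the controls at each of them. Its log2 fold changes were -0.43 at P20 (-0.59, adjusted p = 0.0291, without P20 control 1), -0.19 at P24, -0.18 at P28 and 0.27 at P60. Igfbp2 had 6575, 4686 and 4500 normalized reads in P20 controls and 3213, 2784 and 2476 in P20 dM1/2, without overlap (log2 fold change -0.88, SE 0.16, adjusted p = 0.0573). At P28 its control libraries had 431, 1187 and 102 and its dM1/2 libraries 240, 539 and 1105 normalized reads, a spread wider than the difference of the means. At P60 the third dM1/2 library had 10023 normalized reads of Igfbp2 and the other libraries of that age 2509 to 4004. Igfbp6, which prefers IGF-2 to IGF-1, had 3851, 6937 and 4463 normalized reads in P20 controls and 3434, 2645 and 1901 in P20 dM1/2, again without overlap (log2 fold change -0.93, SE 0.25, adjusted p = 0.102). In anagen its controls spread widely, with 5250, 1149 and 426 normalized reads at P24 and 3677, 5759 and 305 at P28, against 928, 975 and 1056 and 1096, 1571 and 1169 in dM1/2. Without the library labelled P28 control 3, the log2 fold change of Igfbp6 at P28 moved from -0.56 (adjusted p = 0.709) to -1.87 (adjusted p = 0.00082). Without P28 control 2 it was 0.25. Without P24 control 3, the log2 fold change of Igfbp2 at P24 moved from -0.57 (adjusted p = 0.161) to -0.85 (adjusted p = 0.0205). Without P24 control 1 it was -0.36.

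**Figure D2:**
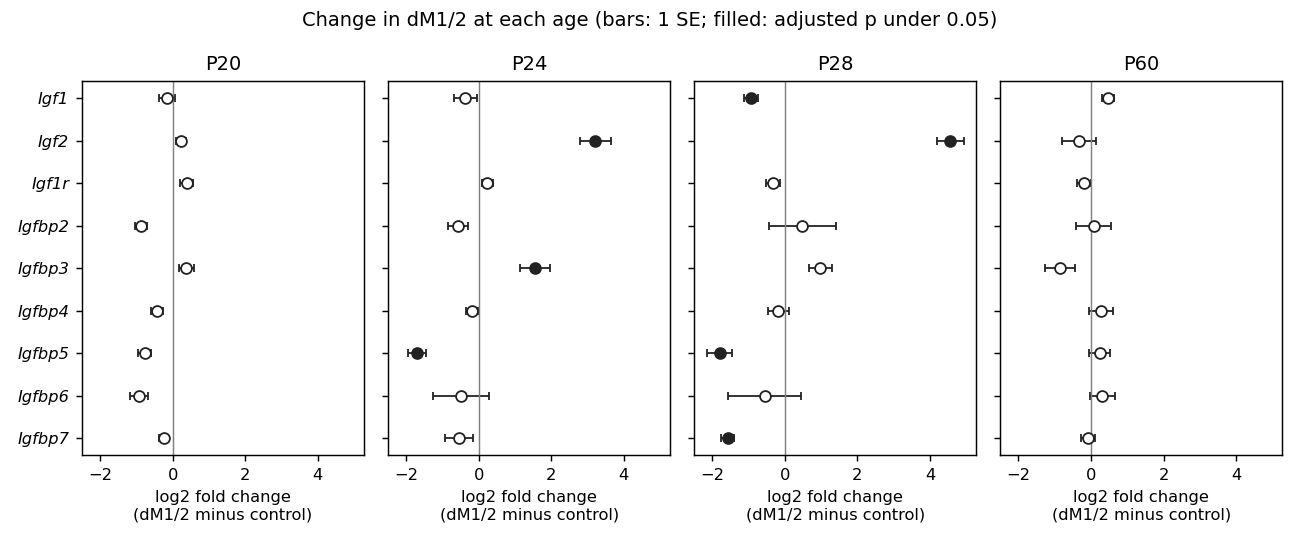
Log2 fold change of each member in dM1/2 against control at P20, P24, P28 and P60, on 1 axis scale, with bars of 1 SE and filled points where the limma adjusted p was under 0.05. Filled points stand at P24 for Igf2, Igfbp3 and Igfbp5 and at P28 for Igf1, Igf2, Igfbp5 and Igfbp7, and at P20 and P60 all points are open.

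Counted over the family, 3 of 9 members changed at P24 and 4 of 9 at P28, while 26.6% and 35.5% of all tested genes did. At P24, 2 members rose and 1 fell, against 14.8% and 11.8% of all tested genes, and at P28, 1 rose and 3 fell, against 20.0% and 15.6%. The shares of members called were thus near those of all genes at these ages. Control and dM1/2 libraries did not overlap for 3 members at P24 and 5 at P28, against 44.8% and 51.3% of all tested genes. Without the library labelled P28 control 3, 5 members and 40.9% of all genes passed at P28, and without P24 control 3, 6 members and 28.7% of all genes passed at P24. At P20, 0 of 9 members passed the limma test, against 0.433% of all genes, and 4 had an unadjusted p under 0.05, as did 2735 of all 13845 genes. Without P20 control 1, 5 members passed at P20 (Igf1r, Igfbp2, Igfbp4, Igfbp5 and Igfbp6), and the share of all genes called rose as well, to 11.1%. With DESeq2 3 members and 4.82% of all genes passed, and with edgeR 0 members and 0.563%. The libraries of 4 members (Igfbp2, Igfbp3, Igfbp5 and Igfbp6) did not overlap at P20, where 25.4% of all genes did not. At P60, 0 of 9 members passed with limma, edgeR or DESeq2, 1 had an unadjusted p under 0.05, and 0% of all genes passed with limma. Of all tested genes at P60, 525 had an unadjusted p under 0.05, and DESeq2 called 26. Only Igf1 had libraries that did not overlap at P60, against 8.87% of all genes. The median log2 fold change of the 9 members was -0.25, -0.37, -0.33 and 0.08 at P20, P24, P28 and P60, and that of all tested genes -0.01, -0.01, 0.00 and 0.02.

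The moves of single binding proteins changed their proportions. The mRNA of Igfbp2 to Igfbp6, summed per kb, was 22914 ± 4115 normalized reads (SD, n = 3) in P24 controls and 11369 ± 1345 in P24 dM1/2, and 22765 ± 2044 and 12363 ± 2308 at P28. At both ages every dM1/2 library was below every control library. Igfbp5 made up 56.6% to 75.1% of this sum in P24 controls and 41.1% to 43.8% in P24 dM1/2, and 51.1% to 73.8% and 21.7% to 39.6% at P28. Igfbp3 made up 1.72% to 3.77% and 13.8% to 18.9% at P24, and 5.56% to 8.86% and 21.4% to 35.1% at P28. The share of Igfbp4, whose level did not pass the test, was 15.4% to 19.3% and 29% to 33% at P24 and 12.4% to 22.8% and 27.5% to 31.1% at P28. In telogen Igfbp3 was the largest or the second largest share of every library, at 47.9% to 58.4% in P20 controls, 69.8% to 78.4% in P20 dM1/2, 33.6% to 62.4% in P60 controls and 19.4% to 34.9% in P60 dM1/2, except in P60 dM 1, where Igfbp6 (36.6%) and Igfbp5 (34%) were above it.

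**Figure D3:**
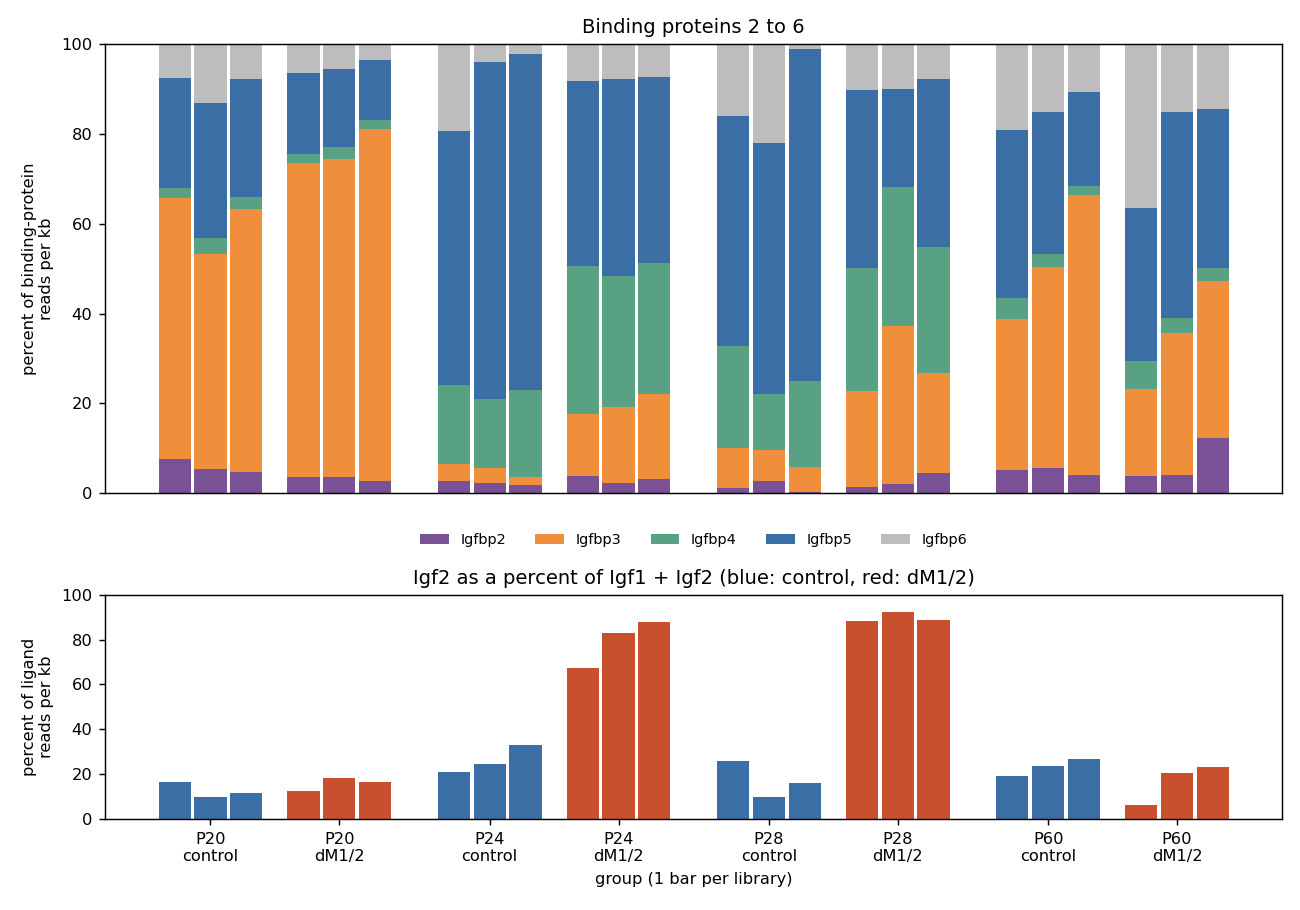
Upper panel, share of each of 5 binding proteins in their summed reads per kb of exon, with 1 bar per library and groups in order of age. Lower panel, Igf2 as a percent of Igf1 and Igf2 reads per kb on an axis from 0 to 100, where the 6 anagen dM1/2 libraries lie between 67.5% and 92.2% and all other libraries at or below 33%.

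Igfbp6 followed the markers of other dermal fibroblasts from library to library. Over the 24 libraries, Pearson's r of Igfbp6 with the summed level of 6 such markers (Pi16, Dpp4, Dpt, Lum, Col14a1 and Cd34) was 0.91 and Spearman's rho 0.90 on a log2 scale, as a description over libraries that also share age, sex and depth. The library labelled P28 control 3, lowest for Igfbp6, had a marker sum of 26183 normalized reads, against 66061 and 115193 in the other P28 controls and 19182 to 31692 in P28 dM1/2. P24 control 1, with the highest Igfbp6 of its age, had 64099, against 37007 and 21876 in the other P24 controls and 15374 to 28016 in P24 dM1/2. P60 dM 1, with the highest Igfbp6 of all (15428), had the highest sum, 216990. At P20 the sum was 96889 to 168146 in controls and 71994 to 95472 in dM1/2, without overlap, beside the lower Igfbp2, Igfbp5 and Igfbp6 in dM1/2. The same r was 0.83 for Igfbp7, 0.79 for Igfbp2, 0.77 for Igf1, 0.69 for Igfbp3, 0.56 for Igfbp5, 0.13 for Igf1r, -0.60 for Igf2 and -0.65 for Igfbp4. Of the 6 markers, 1 was lower in dM1/2 at P24 and 1 at P28 by the same test, and 0 were called at P20 and P60. The 12 DP markers were 1 higher and 6 lower at P24, and 3 higher and 3 lower at P28. At P20 the DP marker sum was 30116 to 33442 in controls and 39993 to 51858 in dM1/2, without overlap. The 5 dermal sheath markers, led by Acta2, summed to 3387 to 9457 in anagen controls and 2176 to 5277 in anagen dM1/2, with 1 lower at P24 and 1 at P28. The part of these cells in the members' changes was not tested.

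**Figure D4:**
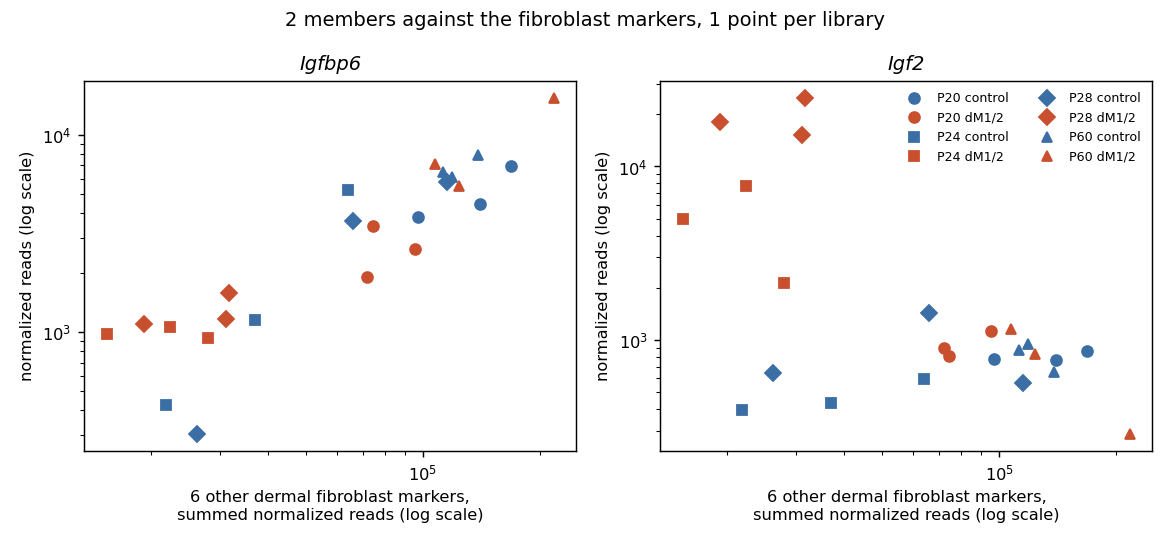
Normalized reads of Igfbp6 (left) and Igf2 (right) against the summed normalized reads of 6 other dermal fibroblast markers, both axes on log scales, with 1 point per library, the shape giving the age and the colour the genotype. Igfbp6 rises along the marker sum, while the 6 anagen dM1/2 libraries stand above all others for Igf2 at marker sums of 15374 to 31692.

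In control mice, 6 of 9 members varied over the 4 ages, against 49.0% of all tested genes. These were Igfbp3 (limma F test, adjusted p = 1.64e-05), Igfbp4 (0.000509), Igfbp2 (0.00259), Igf1 (0.00333), Igfbp7 (0.0112) and Igf1r (0.0163). The adjusted p was 0.0909 for Igf2, 0.177 for Igfbp6 and 0.784 for Igfbp5. Igfbp3 had the widest range, from a mean of 82340 normalized reads at P20 to 2205 at P24, 5006 at P28 and 64536 at P60. Igfbp2 was also lower at both anagen ages, with 5254, 998, 573 and 3842 normalized reads, but had its lowest mean at P28. Igfbp4 was higher at both anagen ages, with 6221, 17367, 18059 and 5550. The 12 DP markers summed to 30116 to 33442 in P20 controls and 25933.5 to 33882.5 in P60 controls. They summed to 265902 to 343222 in P24 controls and 118908 to 320906 in P28 controls. Over the 24 libraries, Pearson's r with this sum was -0.87 for Igfbp3, -0.8 for Igfbp2 and 0.82 for Igfbp4. For the other members it ran from -0.76 (Igfbp6) to 0.19 (Igf2). The part of cell make-up in the age differences was not tested. Depth and these marker sums differ between telogen and anagen libraries and cannot be told apart from the stage.

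Between the anagen ages, 0 of 9 members changed in controls with limma, against 1.46% of all genes, with 4 at an unadjusted p under 0.05 (2593 of all 13966 genes), 4 with DESeq2 (10.7% of all genes) and 0 with edgeR (1.02%). These 4 with DESeq2 were Igf1 (log2 fold change 1.62 from P24 to P28, limma adjusted p = 0.0888), Igf1r (0.75, 0.0924), Igfbp3 (1.33, 0.168) and Igfbp7 (1.47, 0.138). In dM1/2, 2 of 9 members changed from P24 to P28, against 2.67% of all genes, namely Igf2 and Igf1 (log2 fold change 1.05, SE 0.12, adjusted p = 0.00562). The dM1/2 effect differed between P24 and P28 for 0 of 9 members, against 0.707% of all genes, with limma, edgeR and DESeq2, and 1, Igf1r, had an unadjusted p under 0.05, as did 1680 of all 14139 genes. Between the telogens, 1 of 9 members changed in controls, against 12.6% of all genes. Igf1 fell by 1.04 on the log2 scale from P20 to P60 (SE 0.23, adjusted p = 0.0186), and this call was lost without P20 control 3 (adjusted p = 0.077), P60 control 2 (0.0588) or P60 control 3 (0.0582). In dM1/2, 2 of 9 changed between the telogens, against 6.32% of all genes. Igfbp3 fell by 1.69 (SE 0.32, adjusted p = 0.0258) and Igfbp6 rose by 1.71 (SE 0.38, adjusted p = 0.0405). Both calls were lost when any 1 of P20 dM 1, P20 dM 2, P20 dM 3 or P60 dM 2 was left out (adjusted p from 0.0684 to 0.158). Igfbp5 had a log2 fold change of 0.95 there (adjusted p = 0.0624), and passed without P60 dM 1 (adjusted p = 0.0351). The other dermal fibroblast markers summed to 71994 to 95472 in P20 dM1/2 and 107355 to 216990 in P60 dM1/2. The DP markers summed to 39993 to 51858 and 16884 to 35609 in the same groups. The part of these cells in the changes between telogens was not tested. P20 mice were female, and the labels do not give the sex of each P60 library.

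The dM1/2 effect in anagen, averaged over P24 and P28, differed from that in telogen, averaged over P20 and P60, for 5 of 9 members, against 30.2% of all genes. The difference was 3.93 on the log2 scale for Igf2 (SE 0.45, adjusted p = 8.69e-06), 1.50 for Igfbp3 (SE 0.40, adjusted p = 0.00765), -1.48 for Igfbp5 (SE 0.25, adjusted p = 0.000282), -0.89 for Igfbp7 (SE 0.27, adjusted p = 0.0187) and -0.81 for Igf1 (SE 0.27, adjusted p = 0.0293). The call for Igf1 was lost without P20 control 1 (adjusted p = 0.0531), P20 dM 1 (0.05), P28 control 2 (0.051) or P28 dM 3 (0.0511). Igf1r, Igfbp2, Igfbp4 and Igfbp6 had differences of -0.14, 0.36, -0.11 and -0.21 and did not pass.

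Ordered by mean level over the 8 groups, the members had different tops and bottoms. For Igf2 the order was P28 dM1/2, P24 dM1/2 and then the 6 other groups, and the ranges of the first and second and of P24 dM1/2 and the next did not overlap, while each neighbour below overlapped the next. For Igfbp5 the 5 highest groups, which were the 4 control groups and P60 dM1/2, overlapped their neighbours in order, and P20, P24 and P28 dM1/2 followed below a gap. For Igf1r each group overlapped the next throughout. For Igfbp4 the 4 anagen groups stood above the 4 telogen groups with a gap between them. For Igfbp7 the 3 lowest groups, P24 control, P28 dM1/2 and P24 dM1/2, stood below a gap.

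The genes whose log2 levels were most like those of a member over the 24 libraries were taken among 10726 genes averaging 100 or more normalized reads. For Igf2 they were Arhgap15 (Pearson's r = 0.963, Spearman's rho = 0.679) and Pcbp3 (r = 0.936, rho = 0.77). For Igf1 they were Tgfb2 (r = 0.928, rho = 0.92) and Lhfpl2 (r = 0.921, rho = 0.901), and Pearson's r is given for the others. For Igf1r they were Kif1b (0.842) and Mapkbp1 (0.809). Among the binding proteins they were S100a4 (0.965) and Fam180a (0.954) for Igfbp2, Rerg (0.956) and Map3k6 (0.956) for Igfbp3, Mr1 (0.956) and Vhl (0.950) for Igfbp4, and Itgav (0.945) and Msrb3 (0.933) for Igfbp5. For Igfbp6 they were Ecm1 (0.979) and Clec3b (0.974), and for Igfbp7 Slc48a1 (0.948) and Col18a1 (0.941). The libraries share age, genotype and depth, so that these values describe likeness only.

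Of 40 other genes of the pathway in the files, 36 were tested at P24, where 3 rose and 5 fell, and 35 at P28, where 3 rose and 6 fell. These are 8 of 36 and 9 of 35, smaller shares than the 26.6% and 35.5% of all tested genes. Among proteases of the binding proteins and their inhibitors, 2 of 6 fell at P24 and 1 of 6 at P28. Pappa, which encodes the protease PAPP-A that cuts IGFBP4 and IGFBP5, had 4595, 8290 and 3802 normalized reads in P24 controls and 1029, 1383 and 869 in P24 dM1/2, and 9134, 7035 and 15012 in P28 controls and 1578, 1061 and 1096 in P28 dM1/2. The groups did not overlap at either age, and the log2 fold change was -2.29 (SE 0.30, adjusted p = 0.00262) at P24 and -3.01 (SE 0.30, adjusted p = 0.000788) at P28. Pappa2, a related protease that cuts IGFBP3 and IGFBP5, fell by 1.36 on the log2 scale at P24 (SE 0.24, adjusted p = 0.0072), a call lost when all 24 libraries shared 1 fit (adjusted p = 0.0863). At P28 it had 48866, 17209 and 79250 normalized reads in controls and 22395, 26781 and 25215 in dM1/2, with overlap (log2 fold change -0.71, adjusted p = 0.354). The value was -1.33 (adjusted p = 0.0206) without P28 control 2 and -0.23 without the library labelled P28 control 3. Of the 6 P28 fits of Pappa2 that left out 1 library, 1 passed.

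Around the Igf2 locus and among proteins that bind Igf2 mRNA, 1 of 5 tested genes rose and 1 fell at P24, and 1 of 4 rose and 1 fell at P28. The shares of all tested genes that changed were 26.6% at P24 and 35.5% at P28. H19, the noncoding RNA transcribed from the maternal copy next to Igf2, had 214, 374 and 38.3 normalized reads in P28 controls and 629, 1451 and 646 in P28 dM1/2, without overlap (log2 fold change 2.52, SE 0.81, adjusted p = 0.0495). Without the library labelled P28 control 3 it was 1.57 (adjusted p = 0.0156). The call was lost without P28 control 1 (adjusted p = 0.0843), P28 dM 1 (0.103), P28 dM 2 (0.164) or P28 dM 3 (0.0977), and with edgeR (0.0606). At P24 H19 had 672, 258 and 225 normalized reads in controls and 428, 526 and 873 in dM1/2, with overlap (log2 fold change 0.78, adjusted p = 0.229). Plagl1, an imprinted transcription factor gene, fell at both anagen ages (log2 fold change -1.25, adjusted p = 0.00184, and -1.14, adjusted p = 0.0172). Its P28 call was lost without P28 control 1 (adjusted p = 0.0592), P28 dM 2 (0.0691) or P28 dM 3 (0.0656). Igf2bp2, whose protein binds Igf2 mRNA, rose at P24 (log2 fold change 0.70, adjusted p = 0.0177), a call lost without P24 control 2 (0.0703) or P24 dM 1 (0.0667).

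Of 22 genes of intracellular signalling, 2 rose and 2 fell at P24, and 2 rose and 4 fell at P28. Of all tested genes, 26.6% changed at P24 and 35.5% at P28. Pik3r1, a regulatory subunit of PI3-kinase, had 18385, 13386 and 26340 normalized reads in P28 controls and 6469, 5482 and 4903 in dM1/2 (log2 fold change -1.74, SE 0.27, adjusted p = 0.00363). Akt2, a kinase downstream of it, fell at both ages (-0.89, adjusted p = 0.0024, and -0.90, adjusted p = 0.00218). Irs1, an adaptor of the receptor, fell at P28 (-0.99, adjusted p = 0.0246), a call lost without P28 control 1 (0.086), P28 dM 1 (0.0593), P28 dM 2 (0.0945) or P28 dM 3 (0.0593). Grb14, an adaptor that restrains insulin receptor signalling, rose at both ages (1.06, adjusted p = 0.00198, and 0.73, adjusted p = 0.0421). Its P28 call held only without the library labelled P28 control 3, and was lost when any other library was left out (adjusted p from 0.0674 to 0.125). Igf2r and Insr, the tested genes among other ligands and receptors, did not pass at either age. At P20 and P60, 0 of 35 tested pathway genes passed with limma.

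**Figure D5:**
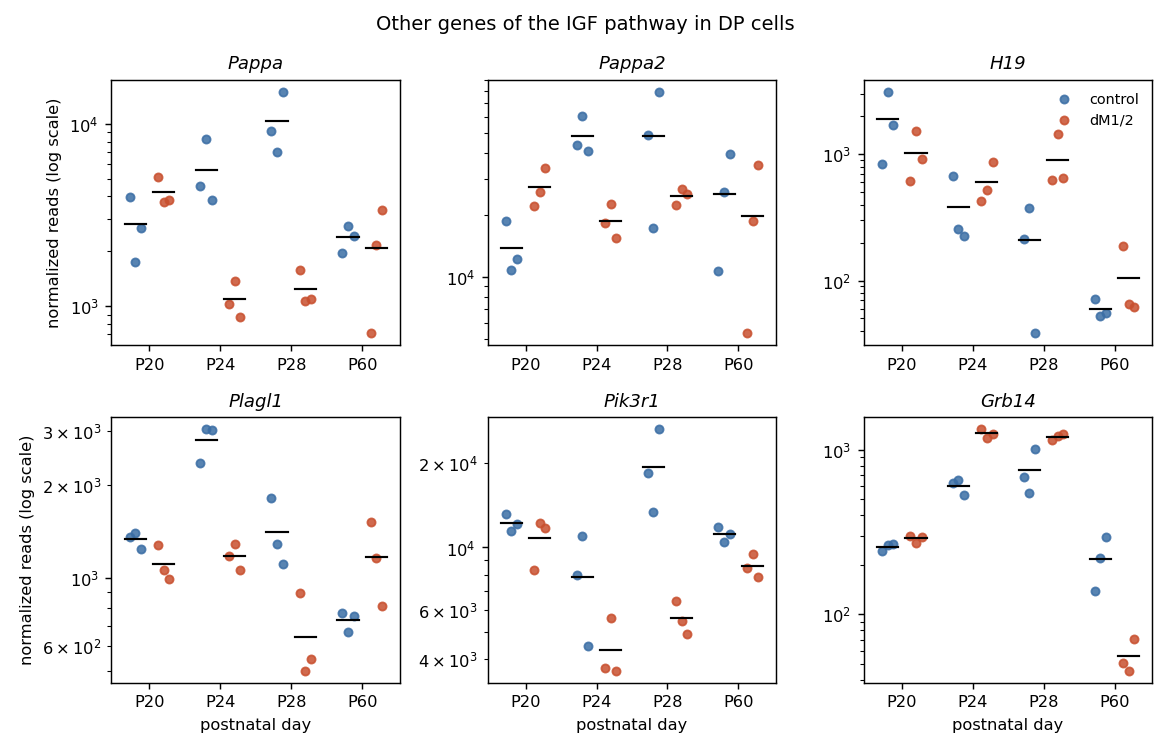
Normalized reads (log axis) of the proteases Pappa and Pappa2, of H19 and Plagl1, and of the signalling genes Pik3r1 and Grb14 against age in control (blue) and dM1/2 (red) libraries, with 1 point per library and a line at the group mean. The Pappa points of the 6 anagen dM1/2 libraries lie at or below 1578 and those of the anagen controls at or above 3802.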

How the data were processed

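The authors trimmed 50-base single-end reads with Trimmomatic, aligned them with TopHat2 to mm10, counted reads per Ensembl gene (GRCm38.p4) with HTSeq and divided the counts by DESeq2 size factors, and these normalized reads are the deposited signal values. Whether counting used strand is not given in the sources used here. Dividing by what 1 read is worth gave whole reads for 100% of values (tolerance 0.1). The deposited comparison columns, fold changes and p-values, were not used.

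Genes averaging 10 or more normalized reads across the libraries compared were tested with limma 3.58.1 (R 4.3.3) on log2(normalized reads + 1) with an intensity trend, and Benjamini-Hochberg adjusted p-values were taken over all genes tested, with 0.05 as the threshold. Fold changes are on this log2 scale and understate changes of low genes. edgeR 4.0.16 (quasi-likelihood) and DESeq2 1.42.0 on the recovered reads, a pseudocount of 10, no filter, log2-CPM with TMM, a replicate block, 1 fit over all 24 libraries and leaving out each library were alternatives. The limma fits at P20 and P28 were tried on simulated counts with the same dispersion for every gene. These counts did not copy the spread of the real replicates. No 2 replicates agreed within counting noise.

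Exon lengths came from the GRCm38 annotation and promoter bases from RefSeq (GRCm38.p6). The text names all 9 members, for each member the 2 genes most like it, Hdac1 and Hdac2, up to 4 other pathway genes per role with the largest change among those called at P24 or P28, and the first gene of each marker list. Members and lists were chosen with earlier results of these data known.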

Additional observations from a re-analysis of the deposited data

Results flagged for a closer look

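For 5 members the dM1/2 effect differed between anagen (mean of P24 and P28) and telogen (mean of P20 and P60) in a test of the difference itself, limma over all 24 libraries. Of all tested genes, 30.2% passed the same test. The difference on the log2 scale was 3.9299 for Igf2 (adjusted p = 8.69e-06), 1.5035 for Igfbp3 (adjusted p = 0.00765), -1.4806 for Igfbp5 (adjusted p = 0.000282), -0.8918 for Igfbp7 (adjusted p = 0.0187) and -0.808 for Igf1 (adjusted p = 0.0293). Depth differs with the stage and cannot be told apart from it. By the study's methods P20 mice were female and anagen mice male. For the second telogen both sexes were used, and the labels do not give the sex of each P60 library.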

How the results depend on the processing

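The pseudocount of 10 changed no call among the 88 results compared. At P20, DESeq2 called 3 members (Igfbp2, Igfbp5 and Igfbp6) and 668 of all genes, against 0 and 60 with limma. From P24 to P28 in controls, DESeq2 and the fit over all 24 libraries each called 4 members against 0 (1494 and 1313 of all genes against 204), and in dM1/2 edgeR and the fit over all 24 libraries each called 1 against 2 (352 and 78 of all genes against 375). The causes were not tested.

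Leaving out 1 library at a time gave 0 to 5 members called at P20, beside 0% to 11.1% of all genes. These ranges were 2 to 6 and 14.6% to 28.7% at P24, and 3 to 5 and 21.5% to 40.9% at P28. At P60 they were 0 members and 0% to 0.0143%. From P24 to P28 in dM1/2 they were 1 to 2 and 0.406% to 3.16%. Between telogens they were 0 to 2 and 3.78% to 20.1% in controls, and 0 to 3 and 0.708% to 12.6% in dM1/2. Between anagen and telogen they were 4 to 5 and 26.0% to 31.0%. Over the control ages they were 6 to 7 and 38.5% to 51.9%. The sign of the log2 fold change turned for Igf1 at P20 (-0.41 to 0.10), Igf2 at P60 (-0.74 to 0.26), Igfbp2 at P28 (-0.45 to 1.31) and P60 (-0.57 to 0.43), Igfbp4 at P28 (-0.41 to 0.014) and P60 (-0.072 to 0.51), Igfbp6 at P24 (-1.32 to 0.49), P28 (-1.87 to 0.25) and P60 (-0.12 to 0.63), Igfbp7 at P60 (-0.23 to 0.015), Hdac1 at P28 (-1.13 to 0.029) and Hdac2 at P20 (-0.063 to 0.046) and P60 (-0.018 to 0.16). None of these was called with all libraries. With TMM log2-CPM, Hdac2 at P20 was 0.0012.

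The deviations of same-numbered control and dM1/2 libraries had r of 0.231, 0.082 and 0.116 at P20 and 0.344, 0.024 and 0.171 at P60, and r from -0.401 to 0.043 at P24 and P28. At no age were all 3 above 0.1, so the libraries were taken to share only a number, although at P20 every library correlated best with its own number. With the replicate block, calls over all genes went from 60 to 439 at P20, 3735 to 2366 at P24 and 5018 to 3713 at P28, 1 member was called at P20 (Igfbp2, log2 fold change -0.88, adjusted p = 0.0171), and Igfbp3 at P24 was not (adjusted p = 0.0636). With 3 mice per group and wide control spread in anagen, the changes of Igfbp2 and Igfbp6 there were not resolved.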
